A study of Mus musculus with 6 samples.

Results

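The proteasome genes were examined in 2T3 cells, pre-osteoblasts of mouse calvaria that descend from 1 clone and divide through T antigen driven by a Bmp2 promoter. The members were all probe sets whose platform annotation gave a single symbol beginning with Psma, Psmb, Psmc, Psmd, Psme, Psmf or Psmg and a digit, without Psmb8 and Psmb9. This rule took 100 of 45101 probe sets, belonging to 47 genes. Of these, 3 probe sets belong to Psmc3ip, a meiotic recombination factor, and Psme3ip1, a protein that binds an activator; these genes share only the name and are counted apart. The remaining 97 probe sets represent 45 proteasome genes. The probe set of Psme2 also names Psme2b and was outside the rule.

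RNA came from 3 samples labelled static and 3 labelled only with the letter R, read here as rotated, all after 3 days; 1 array was made from each. The rotating wall vessel keeps cells suspended in a turning, fluid-filled chamber and serves as a ground model of microgravity. All samples are the same line, with no other agent or genotype named, and the static samples carry the vessel's name in their labels too. For static 2 and static 3 the source field names simulated microgravity against their titles, and the titles were used. Whether each sample was a culture of its own is not in the labels, so p-values measure only how these 6 samples vary, and that variation may be technical. The number of arrays limits the precision.

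The proteasome is the protease that degrades proteins tagged with ubiquitin. Its core particle is a stack of rings: outer rings of alpha subunits form the gate, and inner rings of beta subunits hold the protease sites. A regulatory cap, made of a base with ATPases and a lid, recognises ubiquitin, removes it and feeds the unfolded protein into the core. Dedicated chaperones assemble core and base, and other activators can take the place of the cap. In osteoblasts, as in other cells, proteasome activity sets the lifetime of many signalling proteins and transcription factors, and the transcription factor NFE2L1 is known to raise the subunit genes together when the proteasome is inhibited.

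Values are deposited signals on a linear scale, and differences are log2 rotated minus static after quantile normalization, with limma's moderated standard error (SE). Median signal was 70.0 to 88.8 on 5 arrays and 130.1 on static 1, and each array had the same trimmed mean. The 3' over 5' signal ratio of control probe sets, a measure of RNA quality, set rotated 1 apart for actin and the transferrin receptor. For actin it was 3.21 in rotated 1, 1.57 and 1.48 in rotated 2 and 3, and 1.37, 1.29 and 1.34 in static 1, 2 and 3. Every rotated actin ratio thus lay above every static ratio, so the design does not separate this ratio from the group. For the transferrin receptor the ratio was 8.92 in rotated 1, against 1.62 to 3.71 on the other arrays. The Gapdh controls did not set rotated 1 apart: their ratio was 0.875 there, close to static 1 (0.867), with 0.748 the lowest of the 6 arrays. All 8 osteoblast lineage markers checked, among them Alpl, Sp7, Ibsp and Col1a1, had a mean above the threshold for dim probe sets (5.96 on the log2 scale). Alpl (mean 6.42) and Ibsp (6.37) were near that threshold. Alpl was below it in static 1 (5.77) and rotated 2 (5.72), and Ibsp in static 3 (5.83) and rotated 3 (5.78). Of the markers of other cell types, Ptprc, Pecam1, Cdh5, Tie1, Myod1, Myog, Myh3, Adipoq, Cidec and Matn1 were below that threshold. Lpl (mean 10.4), Col2a1 (10.0), Sox9 (8.19), Csf1r (7.87), Adgre1 (7.10), Cd68 (6.33), Kdr (6.25), Acan (6.07) and Des (6.01) were above it. The summed signal of the 8 osteoblast markers was 75531 to 81850 in the static and 56365 to 71534 in the rotated samples, and 8 of the 8 were lower in value in the rotated samples, with a median log2 difference of -0.53; the part of this in the results was not tested. The other lists were adipocyte (1163 to 1721 static, 1128 to 2177 rotated, 1 of 3 markers above the threshold), chondrocyte (787 to 1765 and 844 to 2749, 3 of 4), skeletal muscle (126 to 177 and 104 to 136, 1 of 4), macrophage (315 to 558 and 415 to 517, 3 of 4) and endothelium (141 to 222 and 62.0 to 145, 1 of 4). In bulk RNA, fewer cells of a type and less RNA per cell cannot be told apart.

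Upstream sequence of 4 members is shown first, because they mark the 2 rings of the core and the gene with the smallest p. The sequences are the 250 bases before the annotated start, from RefSeq on build GRCm38.p6, 5′ to 3′ along the gene's strand. Capitals mark matches, on either strand, to TGACNNNGC (core of the antioxidant response element bound by NFE2L1 and NFE2L2), GAANNTTC (core of the heat shock element) or CCAAT (the NF-Y box); the motifs overlap in none of the 4.
Psma6, alpha ring, the upstream of its 2 listed starts, chr12:55383972-55384221, plus strand: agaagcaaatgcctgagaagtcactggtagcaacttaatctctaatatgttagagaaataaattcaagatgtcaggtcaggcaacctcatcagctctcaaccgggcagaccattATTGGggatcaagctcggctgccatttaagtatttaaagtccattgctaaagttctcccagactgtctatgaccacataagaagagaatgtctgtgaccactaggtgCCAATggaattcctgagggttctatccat
Psmb5, beta ring, chr14:54617996-54618245, minus strand: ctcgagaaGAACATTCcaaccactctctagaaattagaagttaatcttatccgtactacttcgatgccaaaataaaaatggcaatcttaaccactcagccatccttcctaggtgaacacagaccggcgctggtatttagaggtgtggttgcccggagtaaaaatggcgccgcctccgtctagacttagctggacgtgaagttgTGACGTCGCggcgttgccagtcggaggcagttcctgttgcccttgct
Psmb6, beta ring, chr11:70525107-70525356, plus strand: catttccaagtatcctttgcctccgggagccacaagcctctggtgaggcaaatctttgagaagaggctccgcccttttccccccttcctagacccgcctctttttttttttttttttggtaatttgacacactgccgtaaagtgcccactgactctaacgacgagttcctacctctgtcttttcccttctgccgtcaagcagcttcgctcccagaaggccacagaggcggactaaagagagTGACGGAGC
Psmd11, lid, chr11:80428365-80428614, plus strand: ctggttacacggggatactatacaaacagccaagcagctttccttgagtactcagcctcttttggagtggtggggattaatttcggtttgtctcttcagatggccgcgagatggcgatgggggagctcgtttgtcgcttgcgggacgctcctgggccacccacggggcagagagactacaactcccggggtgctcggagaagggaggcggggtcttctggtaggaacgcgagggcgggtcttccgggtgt

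The NF-Y box of Psma6 nearest the start begins 29 bases before it, and the antioxidant response element match begins 47 bases before the start in Psmb5 and 9 bases before it in Psmb6. The other listed start of Psma6, which is not shown, and Psmd11 hold none of the 3 motifs in this window. RefSeq gave 38 promoters for 36 of the 43 genes tested. The antioxidant response element core was in 5 of these 38 (13.2%) and in 10.2% of all 32851 promoters of the same length. The heat shock element core was in 2 of 38 (5.26%) against 6.69%, and the NF-Y box in 12 of 38 (31.6%) against 33.8%. By ring, the NF-Y box was in 5 of 8 alpha promoters and 1 of 5 beta promoters, and the antioxidant response element core in 0 of 8 and 2 of 5. Psma6 has 2 of the 8 alpha promoters, and Psmb1, Psmb2 and Psmb7 have none among the 5 beta promoters. The 2 beta promoters with the antioxidant response element core are those shown, Psmb5 and Psmb6. A match describes letters only and is not a binding site.

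Of the 45 proteasome genes, 43 passed the filter on dim probe sets, which used the mean over all 6 arrays. The others were Psma8, the alpha subunit of the testis, and Psmb11, the beta subunit of thymic epithelium. The signal of Psma8 was between 2.3 and 75.1 over the 6 arrays and that of Psmb11 between 4.7 and 32.0, both below the filter. Of the 97 probe sets 82 were tested, and each gene is given by its tested probe set with the highest mean.

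The proteasome genes showed no common change after 3 days. Of the 43 genes tested, 25 were higher and 18 lower in value in the rotated samples, with a median log2 difference of 0.10, while 53.2% of all 12554 genes tested were higher, with a median of 0.03. The median size of the difference, in either direction, was 0.21 for proteasome genes and 0.26 for all genes. After Benjamini-Hochberg adjustment over all 27022 probe sets tested, limma called 0 proteasome genes, where it called 0% of all genes; the smallest adjusted p of a proteasome gene was 0.592. At an unadjusted p under 0.05 there was 1 gene higher, Psmd11, and 1 lower, Psmb2, against 4.49% of all genes higher and 3.74% lower. With the replicate number as a block there were 2 higher (Psmd11 and Psma6) and 2 lower (Psmb2 and Psmb10), and the smallest adjusted p was 0.243. The array with the high actin ratio moved the median: without rotated 1 it was 0.0078. In limma's 95% intervals, 36 of the 43 genes lay inside a 2-fold change both ways and 11 inside a 1.5-fold change. For the remaining genes a change of 2-fold in at least 1 direction was not outside the interval.

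**Figure D1:**
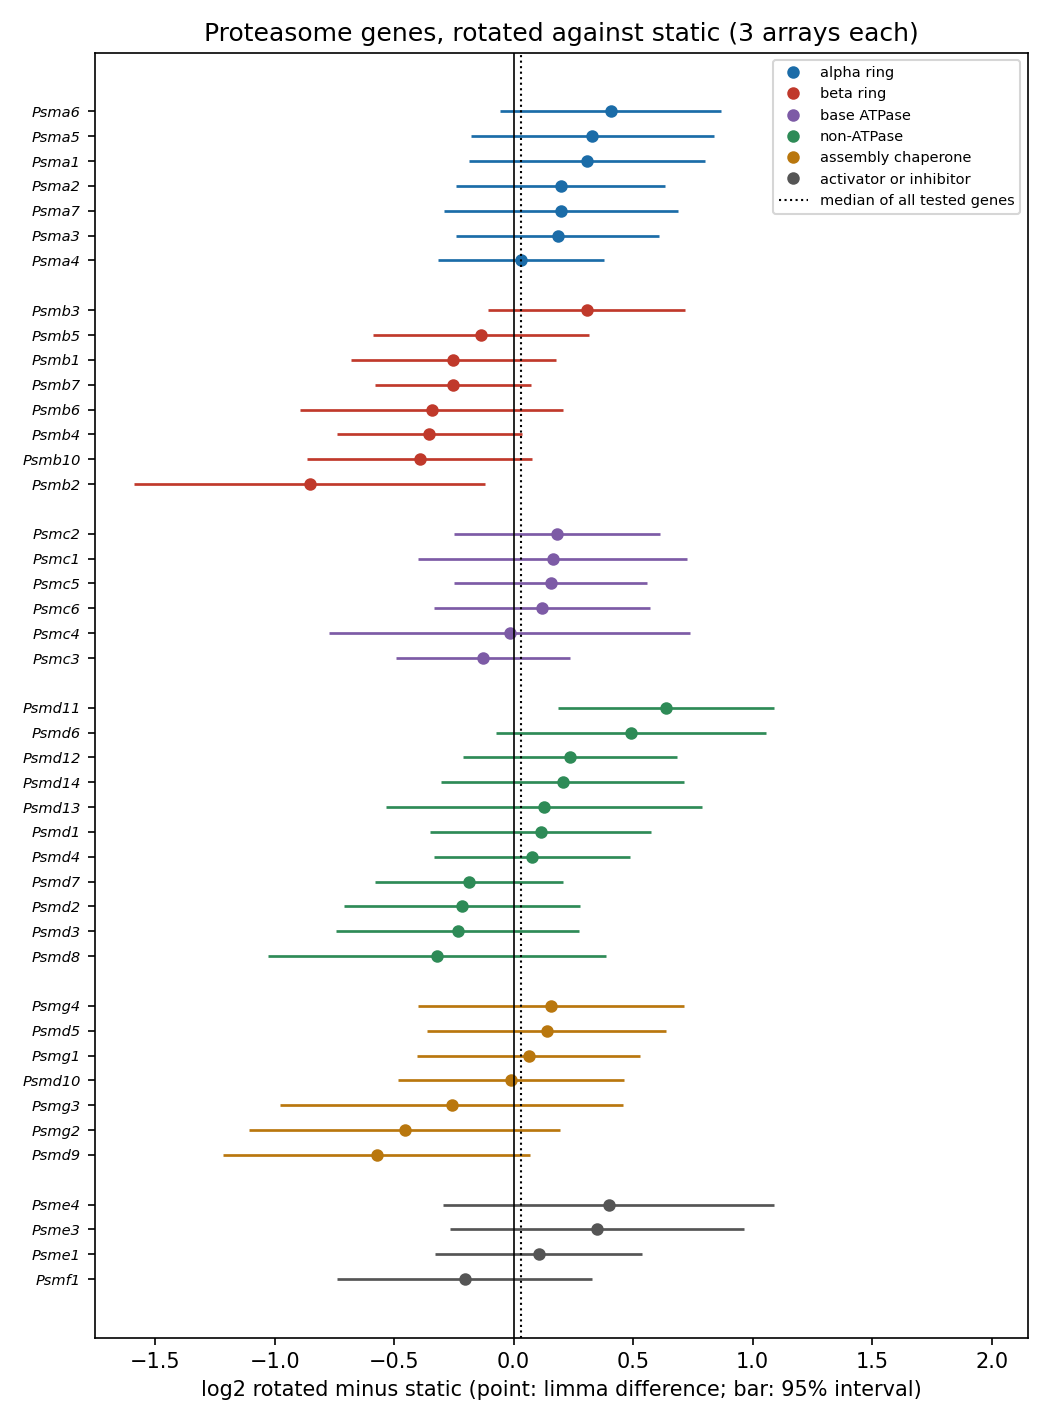
Log2 difference, rotated minus static, of 43 proteasome genes by role, as limma's estimate (point) with its 95% interval (bar), n = 3 arrays per group. Only the intervals of Psmd11 and Psmb2 leave out 0, and the alpha ring genes lie at or right of 0 while 7 of the 8 beta ring genes lie left of it.

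Within this near-null set, the rings of the core particle lay on opposite sides of 0. All 7 alpha ring genes were higher in value in the rotated samples, with a median log2 difference of 0.20, and 7 of 8 beta ring genes were lower, with a median of -0.30. The split into rings was made after the values were seen, and it is a description with no test. None of these 15 genes passed the adjusted threshold. On the scale of each gene's mean over the static samples, the alpha ring's median was 0.03, 0.06 and -0.07 in static 1, 2 and 3, and 0.53, 0.23 and -0.07 in rotated 1, 2 and 3. The beta ring's median was 0.03, 0.06 and -0.09 in the static samples and -0.31, -0.19 and -0.42 in the rotated ones. Thus rotated 3 lay within the static range for the alpha ring, and all rotated samples lay below it for the beta ring. The alpha median minus the beta median was 0.0010, 0.0020 and 0.02 in the static samples and 0.83, 0.42 and 0.35 in the rotated ones. Each gene was centred on its own static mean, so the static gaps lie around 0 by construction. The gap was widest in rotated 1, where 6 of 7 alpha genes had their highest value, against 27.7% of all genes; the part of RNA quality in this was not tested. Without rotated 1 the alpha median was 0.09 with 5 of 7 genes higher, and the beta median -0.26 with 1 of 8 higher. Without rotated 3 the alpha median was 0.41. When the actin ratio entered the model as a covariate, 4 of 7 alpha genes were higher, with a median of 0.0096. In that fit 1 of 8 beta genes was higher, with a median of -0.22. Every rotated actin ratio lay above every static ratio, so this fit cannot separate the ratio from the group.

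The sides of the rings were kept in part under other scalings. With the values as deposited the medians were 0.32 for alpha and -0.20 for beta, with all genes at -0.0090. With median centring they were 0.46 and -0.06, with all genes at 0.13, so that the beta ring stood at -0.19 relative to all genes; 3 of the 8 beta genes were then higher in value. Over all tested probe sets, 12 of 13 for alpha genes were higher and 8 of 12 for beta genes were lower. These counts include the probe sets that represent the genes. The other bright alpha probe sets stood near 0, at -0.05 (Psma5), 0.06 (Psma6) and 0.04 (Psma7). The dimmer ones stood at 0.59 (Psma1), 0.66 (Psma3) and 0.23 (Psma6).

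**Figure D2:**
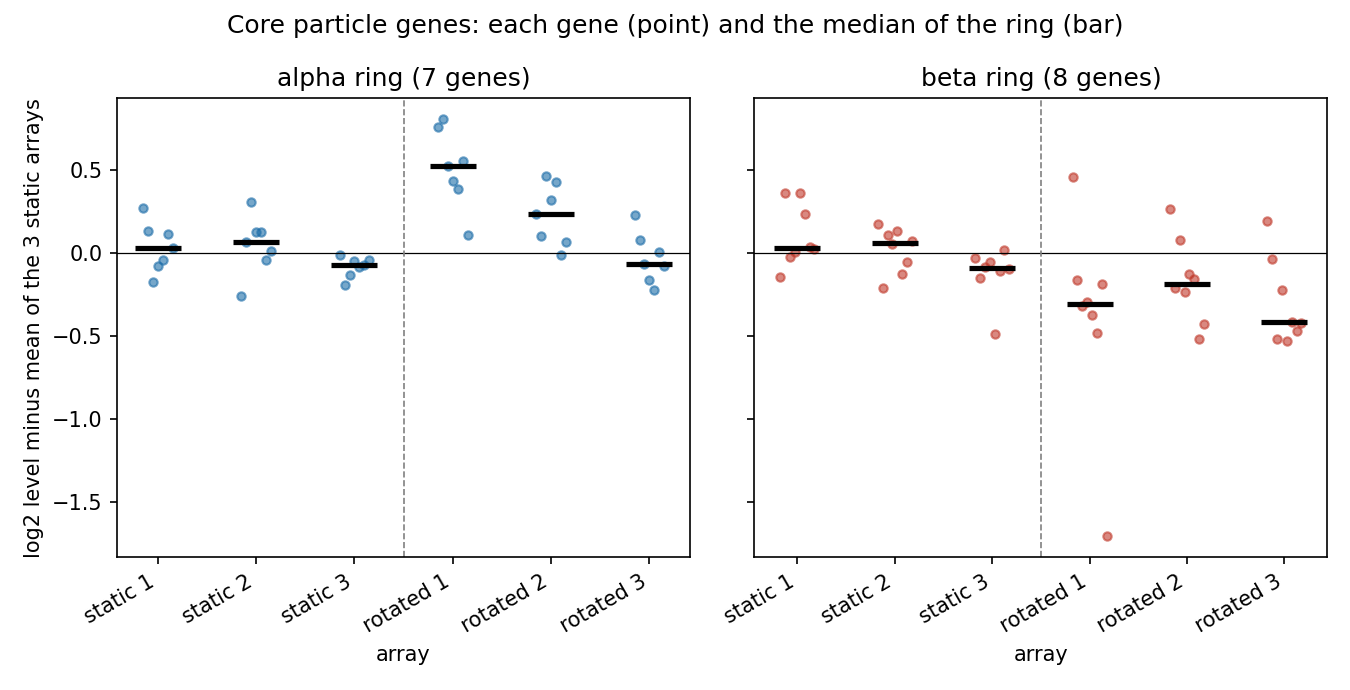
Log2 level of each alpha ring gene (7, left) and beta ring gene (8, right) on each array, minus the gene's mean over the 3 static arrays; points are genes and the black bar is the median of the ring. The alpha median is highest in rotated 1 (0.53) and within the static range in rotated 3 (-0.07), and the beta medians of the rotated arrays (-0.19 to -0.42) lie below the static ones.

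Among the alpha subunits, which form the gated outer rings, Psma6 had the largest difference. Its signals were 10172, 8215 and 8896 in static and 19186, 11490 and 10714 in rotated samples. Every rotated signal was above every static one as deposited, but after normalization static 1 (13.48) lay above rotated 2 (13.44) and rotated 3 (13.44). The log2 difference was 0.41 ± 0.21 (SE, n = 3 per group; unadjusted p 0.0787 and adjusted p 0.611 in limma). Paired by replicate number, the rotated sample was higher by 0.49, 0.49 and 0.24, and the block gave an unadjusted p of 0.0133 and an adjusted p of 0.271. The representing probe set belongs to a class whose probes can match related sequences. A second Psma6 probe set, outside that class, had 7411, 9054 and 7927 against 10360, 8983 and 8294, a difference of 0.06 ± 0.14. The difference of Psma6 therefore depended on the probe set.

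Psma5 had signals of 5497, 5998 and 4696 in static and 10903, 5988 and 5661 in rotated samples. Only rotated 1 stood above the static range, and the difference was 0.33 ± 0.23. Its other bright probe set gave 4040, 3926 and 3330 against 4501, 3880 and 3091, or -0.05 ± 0.20. Psma1, with 4029, 6298 and 4439 against 7910, 6921 and 4681, differed by 0.31 ± 0.22. Rotated 3 of Psma1 lay inside the static range. Psma2 (0.20 ± 0.19), Psma3 (0.18 ± 0.19) and Psma7 (0.20 ± 0.22) differed by about their error, with rotated 3 at or below the static mean for Psma2 and Psma7. A second Psma7 probe set of like brightness stood at 0.04 ± 0.25. Dim second probe sets stood at 0.59 ± 0.32 for Psma1 and 0.66 ± 0.34 for Psma3. Psma4 was the steadiest of the ring, with 5882, 6585 and 6005 against 7558, 6691 and 5850 and a difference of 0.03 ± 0.15 (95% interval -0.32 to 0.38).

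Among the beta subunits, Psmb2, a subunit with no protease site, had the smallest p. Its signals were 3902, 4515 and 3840 in static and 1213, 3116 and 3111 in rotated samples. The groups did not overlap, and rotated 1 was far below the other rotated arrays. The log2 difference was -0.85 ± 0.33, or 1.81-fold lower (95% interval -1.59 to -0.12; unadjusted p 0.0274 and adjusted p 0.596 in limma). Without rotated 1 the difference was -0.43, and it was -0.20 when the actin ratio entered the model. That fit cannot separate the ratio from the group, because every rotated ratio lay above every static ratio. The actin ratio of rotated 1 was 3.21, and its part in the size of this difference was not tested; without rotated 1 the direction was the same.

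The catalytic beta subunits were Psmb5, Psmb6 and Psmb7, the chymotrypsin-like, caspase-like and trypsin-like sites. Psmb7 had signals of 8332, 10076 and 8520 in static and 8597, 8219 and 7684 in rotated samples. Those ranges overlapped as deposited, and after normalization the static values (13.20, 13.25 and 13.14) all lay above the rotated ones (12.90, 12.96 and 12.97). The difference was -0.25 ± 0.15 (95% interval -0.58 to 0.07). With median centring it was 0.0040, where the median of all genes was 0.13. Psmb6, with 4746, 4555 and 2852 against 3189, 3733 and 2821, differed by -0.34 ± 0.25, and static 3 was as low as the rotated samples. Psmb5, the main target of proteasome inhibitor drugs, had 5341, 4083 and 4040 against 4288, 3971 and 4429 and differed by -0.14 ± 0.20. Without static 1 its difference was 0.04, so no direction held for Psmb5.

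Psmb10, the interferon-inducible counterpart of Psmb7 in the immunoproteasome, was lower in every rotated sample. Its signals were 1138, 1102 and 1182 in static and 931, 782 and 854 in rotated samples, with no overlap. The difference was -0.39 ± 0.21 (unadjusted p 0.0920 and adjusted p 0.620 in limma; 0.0497 and 0.341 with the replicate block). Without rotated 1 it was -0.50, so the difference was as large without that array. Psme1, the other interferon-inducible member tested, is an activator subunit. It had 2553, 2979 and 3635 in static and 3688, 3243 and 3130 in rotated samples and differed by 0.10 ± 0.19, with overlapping groups.

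Of the structural beta subunits, Psmb4 had 12442, 10909 and 10149 in static and 9345, 10705 and 8402 in rotated samples. After normalization all rotated values lay below all static ones, and the difference was -0.35 ± 0.17 (unadjusted p 0.0690 and adjusted p 0.610 in limma). A second bright Psmb4 probe set went the other way, with 3892, 8636 and 7320 against 12634, 8142 and 7136, a difference of 0.41 ± 0.27. That probe set too is of the class that can match related sequences; static 1 was its lowest and rotated 1 its highest array. Psmb3 was the only beta gene higher in value, with 2504, 3379 and 2850 against 4202, 3555 and 3348 and a difference of 0.31 ± 0.18; its second probe set stood at -0.11 ± 0.20. Psmb1, with 6909, 8776 and 6975 against 6857, 8424 and 5323, differed by -0.25 ± 0.19 with overlapping groups.

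All rotated values lay above all static values in 3 of the 43 proteasome genes, Psmd11, Psmb3 and Psmc5, against 8.29% of all genes. All rotated values lay below in 4, namely Psmb2, Psmb4, Psmb7 and Psmb10, against 7.11% of all genes. These are shares near the background for the set as a whole. All of the 4 lower genes belong to the beta ring.

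**Figure D3:**
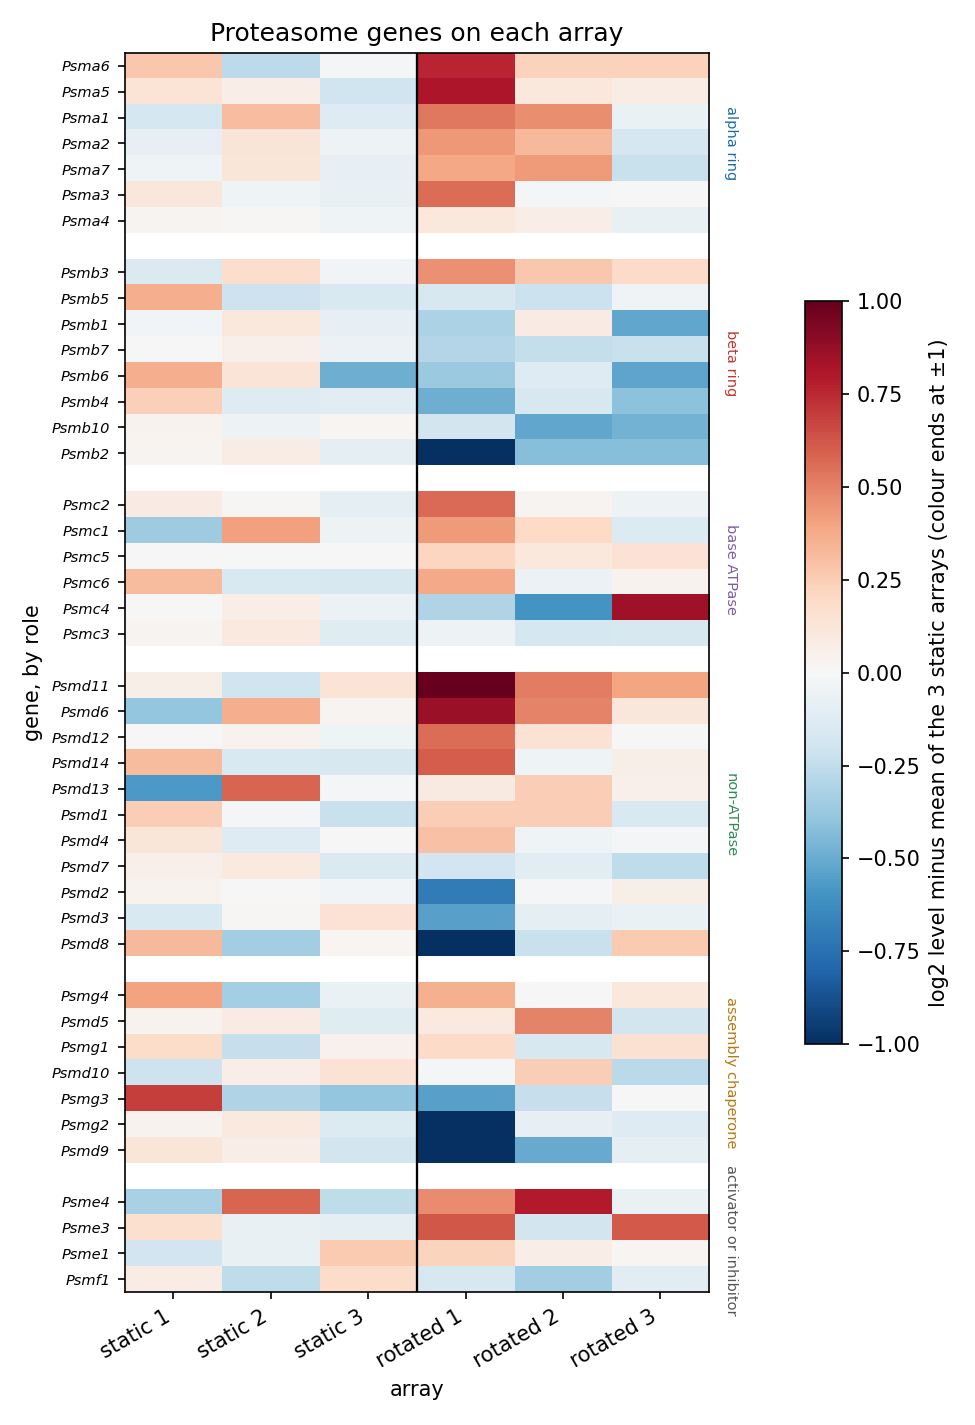
Log2 level of 43 proteasome genes on each of the 6 arrays, minus the gene's mean over the 3 static arrays; red is above and blue below that mean, colours end at ±1, and genes are grouped by role. Rotated 1, the array with an actin ratio of 3.21, has the strongest colours. Of the 43 genes 18 have their highest value there, against 27.7% of all genes, and 9 their lowest, against 24.0% of all genes.

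The base of the cap holds 6 ATPases that unfold substrates, and their transcripts differed little between the groups. The median log2 difference was 0.14, with 4 genes higher and 2 lower in value, and the smallest adjusted p was 0.777. Psmc5 had signals of 1787, 1867 and 1910 in static and 2181, 2020 and 2089 in rotated samples. The groups did not overlap, but the difference was small, 0.16 ± 0.18. Psmc2, through a probe set of the class that can match related sequences with 8392, 9355 and 7862 against 15251, 9348 and 8238, differed by 0.18 ± 0.19 through rotated 1, and without that array by -0.01. Its second bright probe set, with 9007, 9447 and 8275 against 10489, 8927 and 8122, stood at -0.08 ± 0.15.

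Psmc3 (-0.13 ± 0.16), Psmc6 (0.12 ± 0.20) and Psmc1 (0.16 ± 0.25) differed by less than their error. Psmc4 had 2470, 2783 and 2510 in static and 2125, 1736 and 4680 in rotated samples. Rotated 3 stood far above and the other rotated arrays below the static range, and the difference was -0.02 ± 0.34. The second Psmc4 probe set did not show the high value, with 1741, 2327 and 2351 against 1860, 1795 and 2331.

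Of the 11 non-ATPase subunits of base and lid tested, 7 were higher and 4 lower in value, with a median of 0.11. Psmd11, a lid scaffold that clamps the lid to the core, had the smallest p of all proteasome genes. Its signals were 6294, 6011 and 6959 in static and 15445, 9810 and 8361 in rotated samples. All rotated arrays lay above all static ones, and the difference was 0.64 ± 0.20, or 1.55-fold higher (95% interval 0.19 to 1.09; unadjusted p 0.0107 and adjusted p 0.592 in limma). Without rotated 1 it was 0.45.

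All 5 tested probe sets of Psmd11 had differences above 0. A second one, with 2096, 1939 and 1961 against 2388, 2724 and 2406, did not overlap between groups either and differed by 0.29 ± 0.18. Another, with 1533, 1107 and 1183 against 2229, 1568 and 1893, differed by 0.56 ± 0.23 (unadjusted p 0.0393 and adjusted p 0.603 in limma). The remaining probe sets stood at 0.24 ± 0.32 and 0.03 ± 0.30. Direction was thus shared across the probe sets of Psmd11, and size was not: the probe set that represents the gene is also of the class that can match sequences shared between genes.

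Psmd6, another lid subunit, had 3477, 6500 and 4854 in static and 10152, 6964 and 5207 in rotated samples. The difference was 0.49 ± 0.25, with overlapping groups, and a second probe set of Psmd6 with signals of 6092, 6017 and 4769 against 6702, 5740 and 5256 stood at -0.01 ± 0.18. Psmd14, the deubiquitinase of the lid, had 5812, 4736 and 4515 against 8765, 5028 and 5284, a difference of 0.21 ± 0.23. Only rotated 1 of Psmd14 stood above the static range, and paired by replicate number each rotated sample was higher, by 0.29, 0.11 and 0.22.

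The ubiquitin receptor Psmd4 differed by 0.08 ± 0.18, with 3827, 3566 and 3751 in static and 4941, 3725 and 3759 in rotated samples. Psmd1 and Psmd2, the large scaffolds of the base, stood at 0.11 ± 0.21 and -0.22 ± 0.22. Psmd2 was low in rotated 1 alone, with 6268, 6873 and 6376 against 4329, 6739 and 6832, and without that array it stood at 0.03. The same held for Psmd8, with 5260, 3725 and 4591 against 2304, 3972 and 5412, a difference of -0.32 ± 0.31 that became 0.02 without rotated 1. Of the other lid genes Psmd12 stood at 0.24 ± 0.20, Psmd13 at 0.13 ± 0.29, Psmd3 at -0.23 ± 0.23 and Psmd7 at -0.19 ± 0.18.

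The dim probe sets of some genes pointed another way than the bright ones. Psmd7 had 50.9, 92.7 and 26.3 against 141.5, 137.5 and 92.2 for one of its dim probe sets, a difference of 1.20 ± 0.46 (unadjusted p 0.0267 and adjusted p 0.593 in limma), while the probe set that represents the gene had 3240, 3688 and 2993 against 2967, 3112 and 2842. Psmf1, a regulator known as a proteasome inhibitor, had a dim probe set at 1.34 ± 0.56 and a brighter one at -0.57 ± 0.28, and its representing probe set stood at -0.20 ± 0.24. Of the 22 genes with several tested probe sets, all of them pointed one way in 10.

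**Figure D4:**
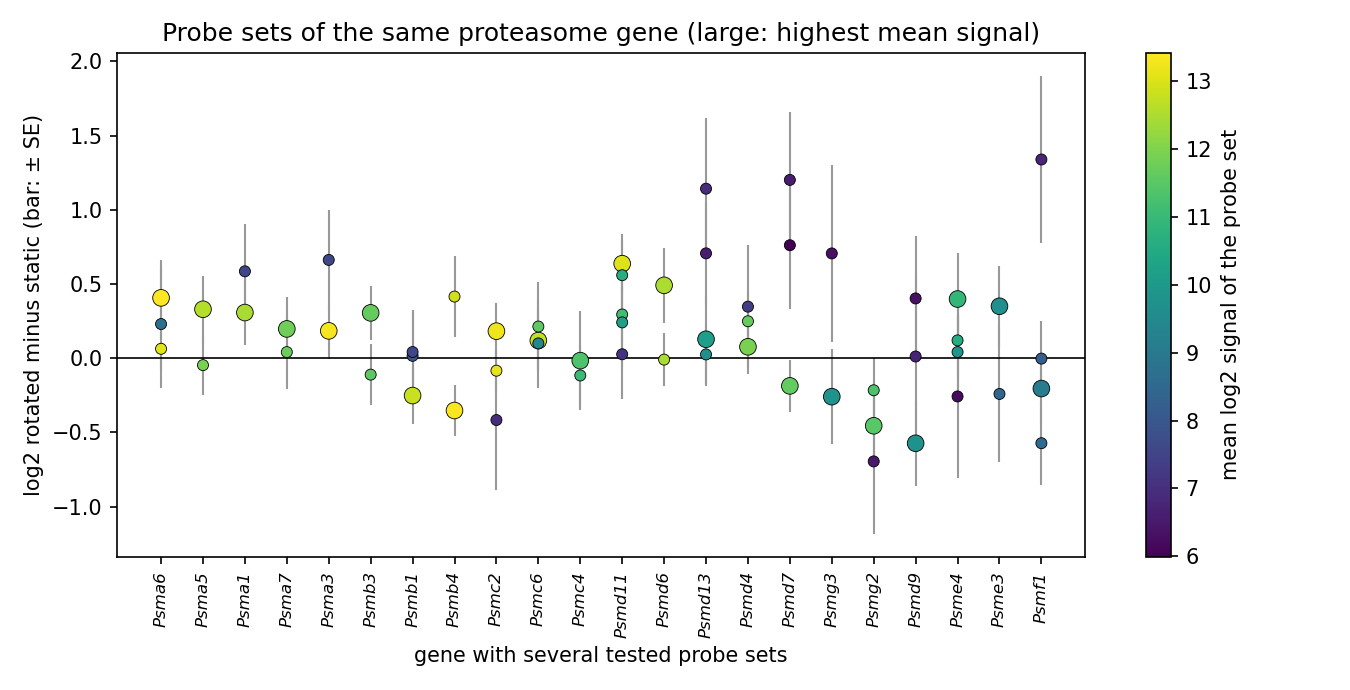
Log2 difference, rotated minus static, with ± SE for every tested probe set of the 22 proteasome genes that have several; large points mark the probe set that represents the gene and colour gives its mean log2 signal. The 5 probe sets of Psmd11 all lie above 0, while those of Psmb4, Psmd7 and Psmf1 lie on both sides of 0 by more than 1 SE.

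The assembly chaperones had a median of -0.01, with 3 genes higher and 4 lower in value, and none passed. Psmd9, a chaperone of the base, had 1114, 1102 and 949 in static and 420, 728 and 1015 in rotated samples. Rotated 1 was lowest and rotated 3 lay within the static range, so the difference of -0.57 ± 0.29 was uneven across arrays and was -0.30 without rotated 1. Psmg2, which with Psmg1 starts the assembly of the alpha ring, had 3228, 3717 and 3039 against 1450, 3205 and 3087, a difference of -0.46 ± 0.29. On this probe set Psmg2 was low in rotated 1 alone and stood at -0.10 without that array. A second bright Psmg2 probe set had 2602, 2874 and 2558 against 1938, 2158 and 3033. It differed by -0.22 ± 0.21, with rotated 1 and rotated 2 below the static range. Psmg1, the partner of Psmg2, had 2194, 1717 and 2112 against 2327, 1827 and 2282, with a difference of 0.06 ± 0.21.

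Psmg3 and Psmg4 form the second chaperone pair of the core; they stood at -0.26 ± 0.32 and 0.16 ± 0.25. The base chaperones Psmd5 and Psmd10 (gankyrin) stood at 0.14 ± 0.22 and -0.01 ± 0.21. Among the alternative activators, the nuclear Psme3 had 776, 664 and 689 in static and 1021, 610 and 1121 in rotated samples. Rotated 2 lay below the static range and the other rotated arrays above it, and the difference was 0.35 ± 0.27. A dimmer Psme3 probe set, with 295, 312 and 566 against 163, 232 and 653, stood at -0.24 ± 0.46. Psme4, the large single-chain activator, had 1289, 2515 and 1415 against 2323, 2925 and 1630, a difference of 0.40 ± 0.31. In Psme4 the samples numbered 2 were high in both groups, and each rotated sample was above its static counterpart by 0.80, 0.21 and 0.19; its second probe set stood at 0.12 ± 0.25.

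Of the genes that share only the name, Psmc3ip had 716, 773 and 640 in static and 1309, 817 and 863 in rotated samples for 1 probe set (0.47 ± 0.26) and stood at -0.10 ± 0.23 for the other. Psme3ip1 stood at 0.05 ± 0.19.

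Genes that work with the proteasome without carrying its name were read as a list of their own, and its difference from the proteasome genes was not tested. The list holds remaining subunits, shuttle proteins, the segregase Vcp with its cofactors and regulators of subunit transcription. Of its 31 genes 22 were tested and the others were not analysed here. There were 13 higher and 9 lower in value, with a median of 0.03, and none passed. At an unadjusted p under 0.05 there was 1 gene higher and 1 lower of the 22, against 4.49% and 3.74% of all genes, which is near the background. Ufd1, a Vcp cofactor, was lowest by p at -0.51 ± 0.19 and Ubqln2, a shuttle protein, stood at 0.53 ± 0.24. Also higher in value were Txnl1 (0.33 ± 0.15), a thioredoxin-like protein bound to the cap, and Midn (0.65 ± 0.34), which carries nuclear proteins to the proteasome. Ngly1, the enzyme that removes sugar chains from NFE2L1, stood at -0.33 ± 0.20, and Nfe2l1 itself at -0.73 ± 0.47. The lid subunit Sem1 (0.09 ± 0.17) and Pomp (0.01 ± 0.22), which matures the beta ring, differed by less than their error.

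Set beside other machinery of protein quality control, the proteasome genes lay nearer to all genes than the heat shock chaperones did. The heat shock chaperones had a median of 0.52, with 15 of 16 genes higher in value, against 53.2% of all genes, and 6 higher at an unadjusted p under 0.05, against 4.49% of all genes. The CCT chaperonin, which folds actin and tubulin, had a median of 0.09, with 6 of 8 higher in value and 2 higher at an unadjusted p under 0.05, beside the same shares of all genes (53.2% and 4.49%). The difference between these lists was not tested, and no gene of any of them passed the adjusted threshold. In rotated 1 the median of the heat shock list over the static mean was 0.74, in rotated 2 and rotated 3 it was 0.50 and 0.40, while the proteasome genes had 0.19, -0.01 and -0.05.

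**Figure D5:**
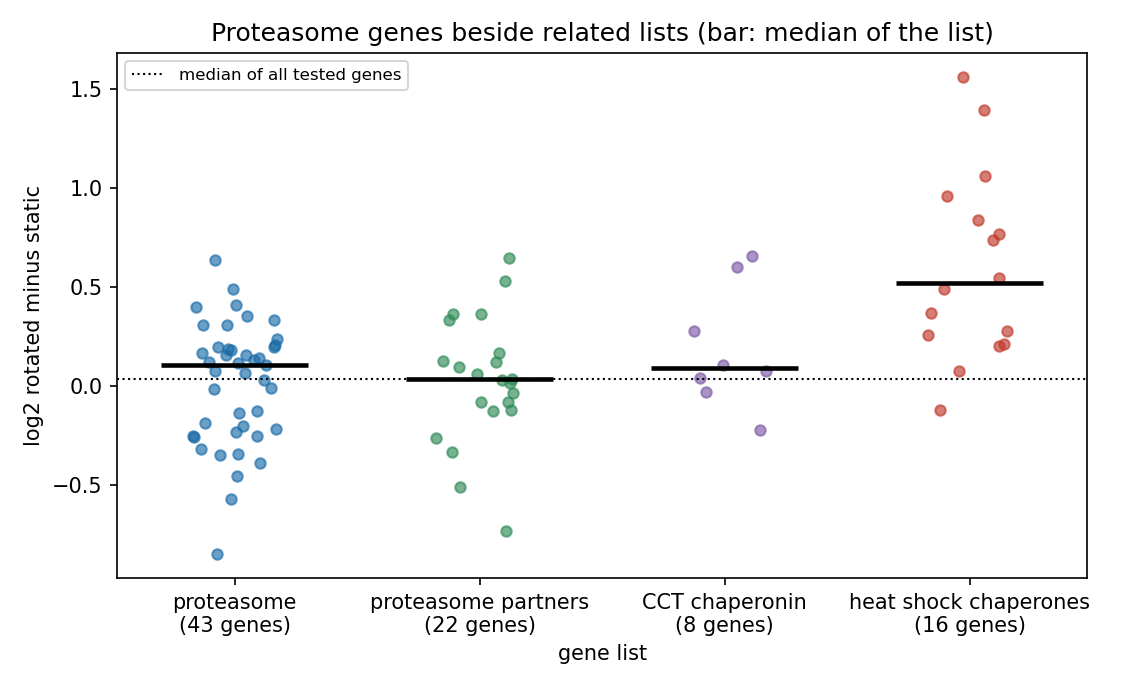
Log2 difference, rotated minus static, of each tested gene (point) in 4 lists, with the median of the list (bar) and that of all tested genes (dotted line, 0.03). Proteasome genes (median 0.10) and their partners (0.03) spread around the dotted line, and the heat shock chaperones (0.52) lie mostly above it.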

How the data were processed

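The authors deposited 1 linear signal intensity per probe set and array; the trimmed mean (2% from each end) of each column was 500.0 in these values, and the summary software is not given in the sources used here. An offset of 16.6, the 20th percentile of the deposited intensities, was added before log2, which understates differences of dim probe sets, and quantile normalization followed. The 64 control probe sets and those with a mean below the 40th percentile were left out, leaving 27022. Symbols came from the platform's table, with genes outside the rule updated through GRCm38.p6 gene identifiers. The rotated and static groups entered a limma model (limma 3.58.1, R 4.3.3; intensity trend, two-sided, Benjamini-Hochberg at 0.05). The method was run on simulated data with independent noise, which held no paired samples and no deviant array, unlike these data. The members and lists were chosen with earlier results of these data known. Full values are given for genes at an unadjusted p under 0.05, the 2 with the smallest p and the brightest in each role, interferon-inducible members and probe sets of 1 gene that differ in sign by more than 1 SE; for partners, 3 genes per direction are named by smallest p. Values given for other genes were chosen after they were seen.

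Samples of the same number deviated together from their group means (correlation 0.196, 0.313 and 0.334 for the 3 pairs, -0.19 to -0.09 otherwise), so the numbers, which the titles give, were taken to pair the samples in an alternative with a replicate block. Other alternatives were the scaling, the offset, the filter, array weights, the actin ratio as a covariate, the mean over probe sets and left-out samples. An alternative without probe sets of shared sequence was chosen after seeing the data.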

Additional observations from a re-analysis of the deposited data

How the results depend on the processing

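No proteasome gene passed the adjusted threshold under any alternative run (smallest adjusted p 0.162, with array weights). Over all probe sets, 22 passed with array weights and 2 with the replicate block, and 0 in the fit without a block. With the replicate block Psma6 and Psmb10 also passed an unadjusted p under 0.05, and no proteasome gene passed the adjusted threshold. The array weights were lowest for static 1 (0.35) and rotated 1 (0.41). The cause of the changes below was not tested. The actin ratio was higher in every rotated than in every static sample, so the fit with the actin covariate cannot separate the ratio from the group.

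The count of proteasome genes higher in value was 18 when the actin ratio was a covariate, 24 without probe sets of shared sequence, 26 with array weights, 27 with the values as deposited or without static 1 and rotated 1, 28 with the mean over probe sets, 30 with median centring and 22 to 26 with each sample left out. At an unadjusted p under 0.05 the genes higher numbered 4 with array weights, 0 with the actin covariate or without probe sets of shared sequence, 2 with the values as deposited, median centring, the replicate block, the mean over probe sets or without static 1 and rotated 1, and 1 to 3 with each sample left out. The genes lower numbered 2 with array weights or the block, 0 with median centring or without static 1 and rotated 1, and 0 to 2 with each sample left out. With median centring, which put all genes at 0.13, the medians were 0.28 for all proteasome genes, 0.25 for the core particle, 0.31 for base and lid, 0.16 for assembly chaperones, 0.37 for activators, 0.46 for the alpha ring and -0.059 for the beta ring, with 3 beta genes higher. With the actin covariate they were -0.020 for all proteasome genes, -0.10 for the core, -0.0054 for base and lid, 0.087 for activators and 0.0096 for the alpha ring, with 4 alpha genes higher. Activators had 0.028 with array weights, 0.090 with the mean over probe sets and 0.074 without static 1 and rotated 1. The beta ring had -0.11 with array weights, and 2 beta genes were higher then, with the mean over probe sets and without static 1 and rotated 1. With each sample left out the medians were 0.0078 to 0.15 for all proteasome genes, -0.0074 to 0.085 for the core, 0.026 to 0.16 for base and lid, -0.14 to 0.086 for assembly chaperones, 0.12 to 0.25 for activators, 0.090 to 0.41 for the alpha ring (5 to 7 genes higher) and -0.37 to -0.24 for the beta ring (1 to 2 higher).

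Genes that changed sign with the actin covariate were Psma3 (-0.10), Psma4 (-0.031), Psma5 (-0.033), Psmc1 (-0.023), Psmc2 (-0.11), Psmc4 (0.25), Psmc6 (-0.088), Psmd1 (-0.0054), Psmd12 (-0.0096), Psmd14 (-0.10), Psmd2 (0.15), Psmd3 (0.0037), Psmd4 (-0.093), Psmd8 (0.18), Psmg1 (-0.039), Psmg2 (0.080) and Psmg4 (-0.015). With the mean over probe sets they were Psmb4 (0.031), Psmc2 (-0.11), Psmd7 (0.59), Psmf1 (0.14) and Psmg3 (0.22), and with median centring Psmb5 (0.062), Psmb7 (0.0040), Psmc3 (0.085), Psmc4 (0.14) and Psmd10 (0.16). Without static 1 and rotated 1 they were Psmb5 (0.056), Psmc1 (-0.15), Psmc4 (0.12), Psmd13 (-0.14), Psmd2 (0.044), Psmd8 (0.18), Psme1 (-0.051) and Psmg3 (0.23), and with array weights Psmb6 (0.053), Psmd10 (0.011), Psme1 (-0.083), Psmg1 (-0.050) and Psmg3 (0.074). Psmc2 (-0.084) changed without probe sets of shared sequence, where Psma6 stood at 0.06 and Psmd11 at 0.29, and Psmc4 (0.0012) and Psmd10 (0.022) with the values as deposited. Genes that changed sign when a sample was left out were Psma3 (-0.0024 to 0.28), Psma4 (-0.0074 to 0.085), Psmb5 (-0.24 to 0.043), Psmc1 (-0.016 to 0.37), Psmc2 (-0.010 to 0.30), Psmc4 (-0.45 to 0.27), Psmc6 (-0.011 to 0.28), Psmd10 (-0.14 to 0.12), Psmd13 (-0.16 to 0.42), Psmd2 (-0.36 to 0.026), Psmd4 (-0.031 to 0.14), Psmd5 (-0.042 to 0.30), Psmd8 (-0.61 to 0.017), Psmg1 (-0.051 to 0.17), Psmg3 (-0.45 to 0.086) and Psmg4 (-0.013 to 0.36).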
